A study of Homo sapiens with 6 samples.

Results

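The genes described here are 10 targets of the transcription factor NF-kB, measured in SKBR3 cells with and without overexpression of CDCP1. They were chosen by name, as a list headed cytokines and feedback genes that also holds LCN2, SOD2 and ICAM1. Each gene has 1 probe in the list, except CXCL8 (also called IL8), which has 2. All 11 listed probes were found among the 47231 probes of the deposited table. The gene of each probe is the one stated in that list. It was not checked against a platform annotation, so every gene name below stands for the probe listed under it.

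SKBR3 is a human breast cancer cell line of luminal epithelial origin that carries an amplified ERBB2 (HER2) gene. CDCP1, or CUB domain-containing protein 1, is a membrane glycoprotein that SRC family kinases phosphorylate. Total RNA from 3 control samples, titled GFP, and from 3 samples titled CDCP1 was labelled with biotin and hybridised to 6 Illumina bead arrays of 1 slide. The labels give 1 cell line grown in vitro for both groups and number the samples of each group by experiment. They do not say whether equal numbers pair the samples, and name neither the vector, the number of clones nor separate cultures. Each p-value therefore speaks only of the variation among these 6 samples, part or all of which may be technical. CDCP1 itself, the markers of SKBR3 and of other cell types, and the other genes of the NF-kB pathway were not analysed here, because no probe outside the list was paired with a gene. The overexpression and the cell type were therefore taken from the labels.

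In resting cells NF-kB dimers are held in the cytoplasm by inhibitor proteins, of which NFKBIA (IkB-alpha) is the classical one. Cytokines such as TNF and interleukin 1 activate the IkB kinase, the inhibitor is degraded, and the dimers enter the nucleus and bind kappaB elements near their target genes. The targets include chemokines that recruit leukocytes, adhesion and protective proteins, and the inhibitors NFKBIA and TNFAIP3 (A20), which switch the pathway off again. Transcripts of these genes are commonly read as output of the pathway in epithelial and tumour cells.

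LCN2 was the only one of the 10 tested probes that differed between the groups past the threshold. It was 1.26-fold higher in the CDCP1 cells. Of all 31511 tested probes, 5.26% passed in either direction, so 1 call in 10 does not set the list apart. The LCN2 call was lost when any 1 of 3 single arrays was left out. The remaining 9 tested probes, for the chemokines CXCL8, CXCL1 and CCL20, the cytokine IL6, the feedback inhibitors TNFAIP3 and NFKBIA, and SOD2 and ICAM1, did not pass. The probe for CXCL2 lay near background and was not tested. A change of 1.5-fold in either direction was outside the 95% interval of all 10 tested probes, on the scale of the deposited signals. The same held for 30668 of all 31511 tested probes, so it does not set the list apart. For probes near background such an interval bounds the signal rather than the transcript.

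The promoters are shown first, because binding of NF-kB at kappaB elements is what the listed genes are known to share, while their signals did not move together. RefSeq promoter windows (GRCh38.p14), from 250 bases before to 50 bases after the transcription start, were listed for all 10 genes, with 4 windows for SOD2 and 1 for each of the others. Both strands were searched for 4 motifs: the 10-letter kappaB consensus, a 9-letter kappaB form spelled GGAANTTCC, the AP-1 motif TGANTCA and the TATA box TATAAA. The kappaB motifs can overlap and were then printed as 1 stretch. A match to either kappaB motif was found for 9 of the 10 genes, and 11.8% of all 35116 windows in the table held one. A gene was counted if any of its windows matched, whereas the shares given here are of single windows. The 10-letter consensus was found for 7 genes and in 11.3% of all windows, and the 9-letter form for 5 genes (CXCL8, CXCL1, CXCL2, NFKBIA and ICAM1) and in 0.965% of all windows. The genes had been listed as NF-kB targets, so this is a description of the list. SOD2 had no match in its 4 windows. Apart from the window at the annotated gene start, their starts lie 34897, 35331 and 69040 bases inside the SOD2 gene.

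The bases before the start of LCN2, the gene whose probe passed the test, are given in full. LCN2 lies on chromosome 9 (chr9:128149453-128153453, plus strand, GRCh38.p14) and encodes lipocalin 2, a secreted protein that binds bacterial siderophores and so withholds iron. The stretch is chr9:128149203-128149452 on the plus strand, and capitals mark the kappaB match, which lies 175 to 166 bases before the start.
LCN2: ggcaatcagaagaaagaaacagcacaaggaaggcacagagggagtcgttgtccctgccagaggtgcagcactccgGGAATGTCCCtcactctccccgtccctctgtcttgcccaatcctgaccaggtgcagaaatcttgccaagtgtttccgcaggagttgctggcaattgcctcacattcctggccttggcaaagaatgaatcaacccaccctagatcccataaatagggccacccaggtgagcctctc

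For the other genes the kappaB match nearest to the start is shown with up to 20 bases on each side, so that the elements can be compared. Capitals again mark kappaB matches, and every stretch is written 5′ to 3′ on the strand of its gene. The stretches are chr4:73740458-73740506 (plus) for CXCL8, chr4:73869294-73869344 (plus) for CXCL1, chr4:74099243-74099293 (minus) for CXCL2 and chr2:227813743-227813792 (plus) for CCL20. They are chr7:22727107-22727156 (plus) for IL6, chr6:137867184-137867233 (plus) for TNFAIP3, chr14:35404801-35404850 (minus) for NFKBIA and chr19:10270914-10270962 (plus) for ICAM1.
CXCL8: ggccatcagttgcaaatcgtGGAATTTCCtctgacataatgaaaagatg
CXCL1: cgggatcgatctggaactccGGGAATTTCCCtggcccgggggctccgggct
CXCL2: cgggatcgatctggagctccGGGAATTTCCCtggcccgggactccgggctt
CCL20: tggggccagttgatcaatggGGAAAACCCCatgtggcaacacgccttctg
IL6: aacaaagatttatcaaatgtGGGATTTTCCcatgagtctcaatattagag
TNFAIP3: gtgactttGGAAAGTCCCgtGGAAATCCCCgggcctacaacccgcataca
NFKBIA: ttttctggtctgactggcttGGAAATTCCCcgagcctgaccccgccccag
ICAM1: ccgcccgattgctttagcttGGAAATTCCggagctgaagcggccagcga

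The elements of CXCL1 and CXCL2 were spelled alike over 11 bases. Over the 250 bases before the start these 2 promoters were 70.4% identical in a global alignment, against 42.6% for CXCL1 and CXCL8. In 6 of the 9 genes (CXCL8, CXCL1, CXCL2, CCL20, IL6 and NFKBIA) the match lay between 91 and 64 bases before the start. It lay farther upstream in LCN2 and in ICAM1 (186 to 178 bases before the start), and TNFAIP3 held 2 matches between 67 and 46 bases before the start used for its window. That start (chr6:137867259) lies 910 bases inside the annotated TNFAIP3 gene, which begins at a more upstream start. The AP-1 motif was found in CXCL8 and LCN2 and in 7.71% of all windows. A TATA box was found in CXCL8, CCL20, NFKBIA and ICAM1, and in 11.5% of all windows. A match is no evidence that the factor binds there, and no binding was measured.

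**Figure D1:**
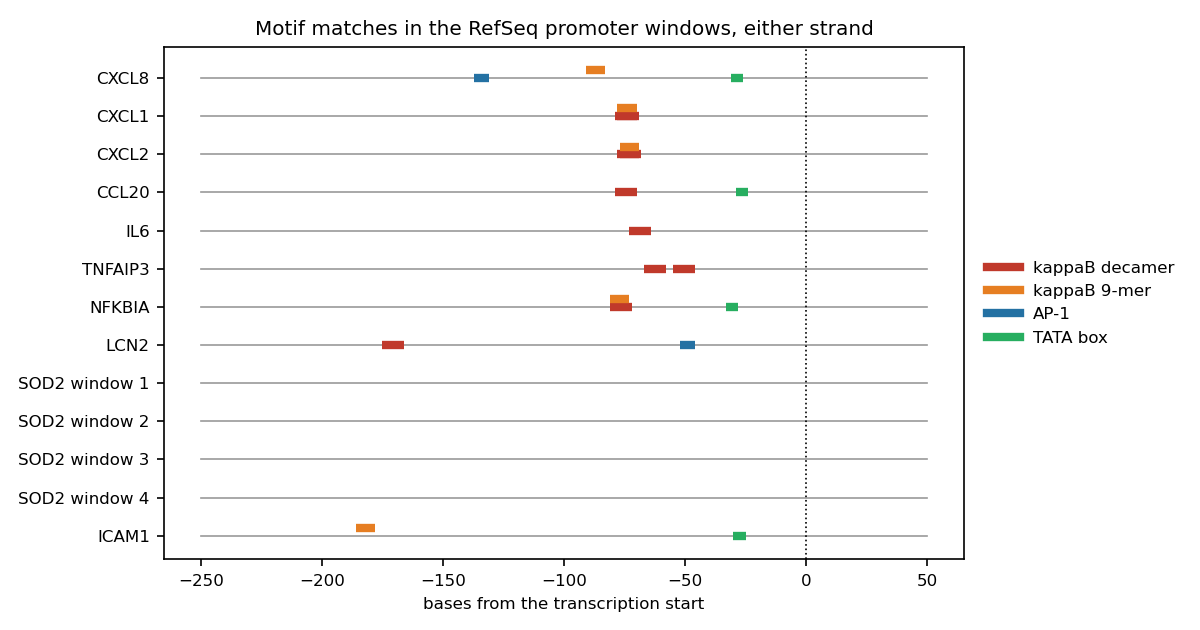
Matches to 4 motifs in the promoter windows of the 10 genes. The horizontal axis gives bases from the transcription start, each grey line is 1 window, and coloured bars are matches on either strand. In 9 of the 10 genes a kappaB match (red or orange) is seen, and in the 4 windows of SOD2 there is none.

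Signals below are the deposited values, taken as log2, and background was taken to end at an estimated signal of 6.68. A probe that exceeded this limit on 3 or more arrays entered the limma fit, and p-values were adjusted by Benjamini-Hochberg over all 31511 such probes. Of these, 1657, or 5.26%, passed an adjusted p of 0.05 in either direction, and 2.61% passed it as higher in the CDCP1 cells. The total of 1657 fell to 778, 689 and 613 when GFP control replicate 1, 2 or 3 was left out and to 711 for CDCP1 replicate 2, and it reached 2132 and 1878 for CDCP1 replicates 1 and 3. Between 30867 and 30880 probes were above background on each array. Pairs of CDCP1 arrays differed by an SD of 0.129 to 0.197 over the tested probes, pairs of control arrays by 0.119 to 0.139, and pairs across the groups by 0.153 to 0.235. CDCP1 replicate 1 stood apart, with an array weight of 0.381 in limma against 0.927 or more for the other 5 arrays, so values without it are given below where they matter.

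Among the members there was 1 call in 10 tested probes, toward higher signal, which in a list of this length is near the overall 5.26%. Complete separation of the CDCP1 arrays from the controls was seen for 1 of the 10 tested members, again LCN2, and for 22.0% of all tested probes. The median log2 change of the 10 tested members was -0.0055, and that of all tested probes was -0.0041. The median size of the change, sign aside, was 0.088 for the members and 0.067 for all tested probes. Of the 10 members, 4 had a change above 0. By count and median the listed genes were thus not set apart from the other probes.

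**Figure D2:**
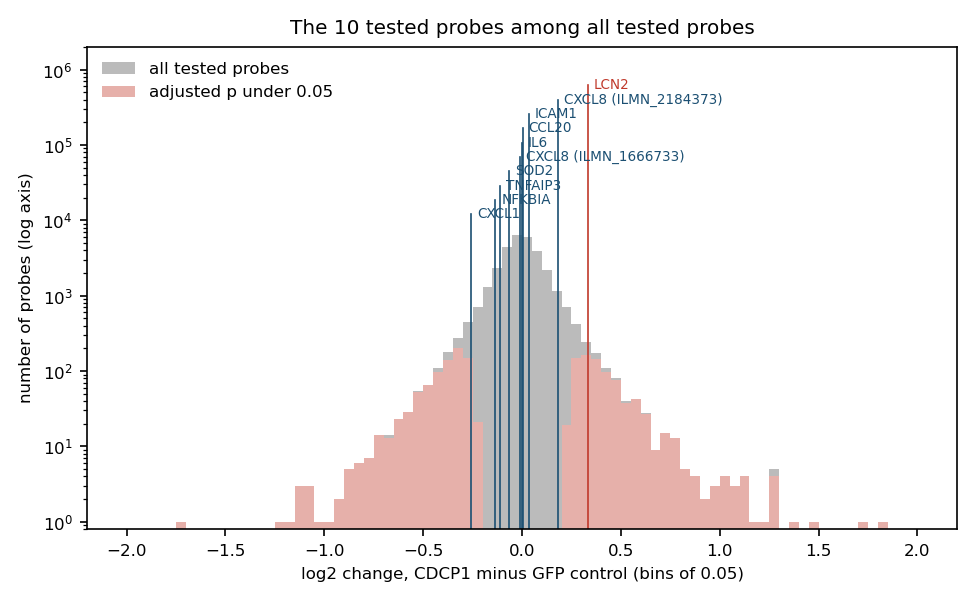
Log2 change (CDCP1 minus GFP control) of all 31511 tested probes in bins of 0.05, on a logarithmic count axis, with the probes past an adjusted p of 0.05 in pink. Vertical lines mark the 10 tested members, of which LCN2 (red) lies farthest to the right and CXCL1 farthest to the left.

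LCN2 (probe ILMN_1692223) gave log2 signals of 7.82, 7.67 and 7.69 in control replicates 1 to 3 and of 8.03, 8.03 and 8.12 in CDCP1 replicates 1 to 3. All 3 CDCP1 arrays lay above all 3 controls, and the spread within either group was smaller than the gap between the group means. The control mean was 7.73 ± 0.085 (SD, n = 3) and the CDCP1 mean 8.06 ± 0.050 (SD, n = 3). LCN2 therefore rose by 0.33 on the log2 scale, with a standard error of 0.067 and a 95% interval of 0.19 to 0.48 (adjusted p = 0.0158 in limma), a fold of 1.26 with an interval of 1.14 to 1.39. Its size exceeded that of 96.1% of all tested probes. The fold and its interval are those of the deposited signal. Normexp with an offset of 50, which removes part of the background, gave LCN2 a log2 change of 0.40.

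The call for LCN2 was lost when any 1 of 3 single arrays was left out, although its size changed little. Without GFP control replicate 2 the log2 change was 0.30 (limma adjusted p = 0.085), without GFP control replicate 3 it was 0.31 (limma adjusted p = 0.0923), and without CDCP1 replicate 2 it was 0.35 (limma adjusted p = 0.0541). Leaving out CDCP1 replicate 1, the array that stood apart, kept the call, with a log2 change of 0.35 (limma adjusted p = 0.0117). The call was also kept without GFP control replicate 1 and without CDCP1 replicate 3, with changes of 0.38 and 0.30. In the 3 fits that lost the call, the total over all probes also fell from 1657, to 689, 613 and 711. That total was 778 without GFP control replicate 1, where LCN2 kept the call. In the 10 other fits that kept the 6 arrays LCN2 stayed past the threshold of 0.05, with adjusted p-values in limma between 0.00612 and 0.0467. It would not pass a threshold of 0.01 in the reported fit.

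**Figure D3:**
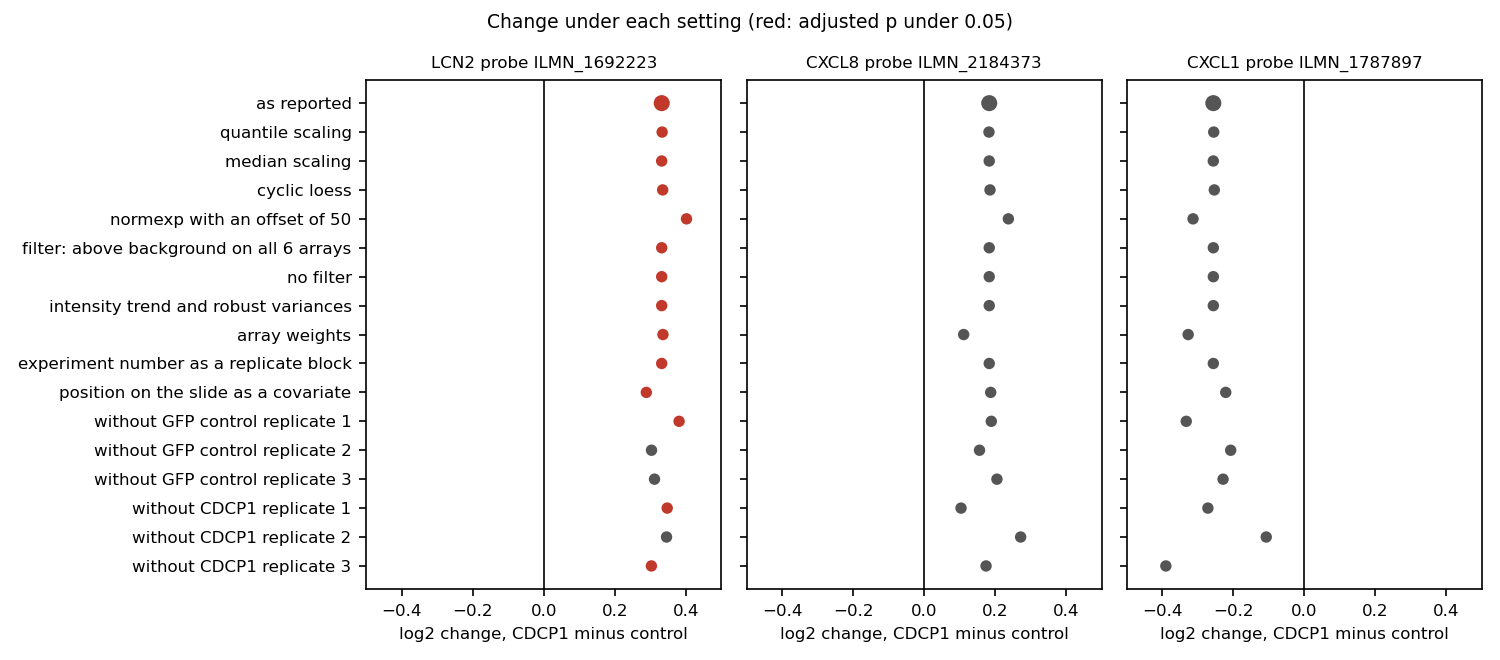
Log2 change (CDCP1 minus GFP control, horizontal axis) of the probes for LCN2, CXCL8 (ILMN_2184373) and CXCL1 under the reported setting (large point) and each alternative. Red points passed an adjusted p of 0.05. LCN2 stays between 0.29 and 0.40 and loses the call without 1 of 3 single arrays, while CXCL8 and CXCL1 never pass.

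The chemokines CXCL8, CXCL1 and CXCL2 are ligands of the receptor CXCR2 and attract neutrophils. Their genes lie in 1 cluster on chromosome 4, CXCL8 at chr4:73740569-73743716 and CXCL1 at chr4:73869393-73871308 on the plus strand, and CXCL2 at chr4:74097040-74099195 on the minus strand (GRCh38.p14). None of their 3 tested probes passed the threshold, and the larger 2 of their differences, for CXCL8 probe ILMN_2184373 and for CXCL1, lay on opposite sides of 0.

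CXCL8 (interleukin 8) was read by a pair of probes that gave different values. Probe ILMN_2184373 stood at 7.38, 7.31 and 7.41 in the controls and at 7.71, 7.37 and 7.57 in CDCP1 replicates 1 to 3. CDCP1 replicates 1 and 3 lay above all controls, whereas replicate 2 lay among them. The log2 difference was 0.18 (SE 0.084, 95% interval -0.00085 to 0.37, limma adjusted p = 0.296), with values of 0.10 when CDCP1 replicate 1 was left out and 0.27 when replicate 2 was. Probe ILMN_1666733 stood at 7.21, 7.19 and 7.49 in the controls and at 7.28, 7.31 and 7.28 in the CDCP1 cells. Here the CDCP1 arrays lay within 0.030 of each other and inside the range of the controls, of which replicate 3 was high. The log2 difference of this second probe was -0.0095 (SE 0.082, 95% interval -0.19 to 0.17, limma adjusted p = 0.979). The positions of these probes in the CXCL8 transcript were not used here, so which transcripts each of them reads cannot be stated.

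CXCL1 (probe ILMN_1787897), a growth-regulated chemokine also called GRO-alpha, had the lowest log2 difference of the list. Its signals were 7.88, 8.13 and 8.09 in the controls and 7.81, 7.48 and 8.04 in the CDCP1 cells. CDCP1 replicates 1 and 2 lay below all controls, whereas replicate 3 lay among them, and the CDCP1 arrays spanned 0.57 against 0.25 for the controls. The difference was -0.26 (SE 0.12, 95% interval -0.53 to 0.015, limma adjusted p = 0.328). Leaving out CDCP1 replicate 2 gave -0.11 and leaving out replicate 3 gave -0.39, so its size varied with single arrays.

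CXCL2 (probe ILMN_1682636), also called GRO-beta, was above the background limit on 1 control array and 1 CDCP1 array. Its signals were 6.58, 6.72 and 6.58 in the controls and 6.79, 6.59 and 6.62 in the CDCP1 cells, so the groups overlapped. With too few arrays above the limit it was not tested. The group means of 6.63 and 6.67 differed by 0.039, which is less than the SD within either group, 0.083 and 0.11. A transcript near or under the limit gives such signals whether it is weak or absent.

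CCL20 (probe ILMN_1657234; chr2:227813842-227817556, plus strand, GRCh38.p14) encodes the ligand of CCR6, a receptor of dendritic cells and lymphocytes. It was above the limit on all 6 arrays, at 6.99, 7.18 and 7.06 in the controls and 7.06, 7.03 and 7.15 in the CDCP1 cells. The CDCP1 arrays lay inside the range of the controls. Between the group means the log2 difference was 0.0038 (SE 0.070, 95% interval -0.15 to 0.16, limma adjusted p = 0.988).

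IL6 (probe ILMN_1699651; chr7:22727200-22731998, plus strand, GRCh38.p14), the cytokine that signals through gp130 to STAT3, was barely measurable. Its signals were 6.65, 6.62 and 6.79 in the controls and 6.70, 6.63 and 6.73 in the CDCP1 cells, above the limit on 1 control array and 2 CDCP1 arrays. It thus only just met the rule for testing, and the groups overlapped fully. For IL6 the log2 difference was -0.0014 (SE 0.068, 95% interval -0.15 to 0.15, limma adjusted p = 0.995). Signals so close to background are compressed, and this interval bounds the signal rather than the transcript.

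**Figure D4:**
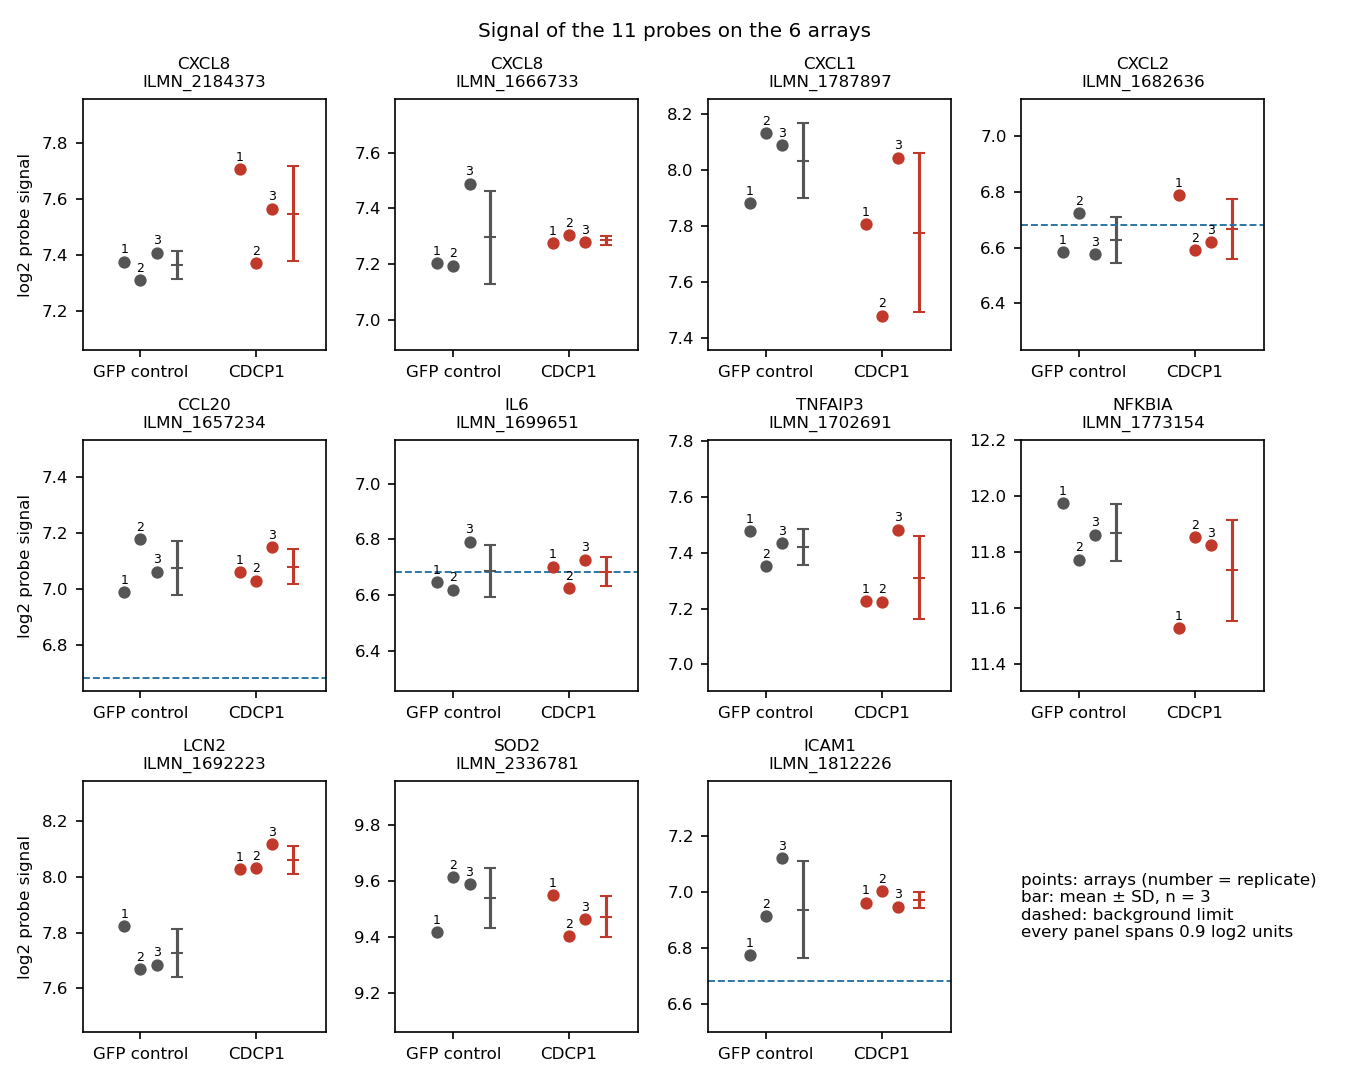
Log2 probe signal of the 11 listed probes on the 6 arrays, with points numbered by replicate, bars for the mean ± SD (n = 3) and a dashed line at the background limit of 6.68 where it falls in the panel. Every panel spans the same height of log2 units. LCN2 is the only listed probe whose groups do not overlap, and 22.0% of all tested probes likewise have groups that do not overlap. CXCL2 and IL6 lie around the limit.

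The feedback inhibitors come next. NFKBIA (probe ILMN_1773154; chr14:35401513-35404749, minus strand, GRCh38.p14) encodes the inhibitor that NF-kB induces to end its own response. Its signals were 11.98, 11.77 and 11.86 in the controls and 11.53, 11.85 and 11.83 in the CDCP1 cells, so it was far above the background limit on every array. CDCP1 replicate 1 was the lowest array, and replicates 2 and 3 lay among the controls. The log2 difference was -0.13 (SE 0.092, 95% interval -0.34 to 0.068, limma adjusted p = 0.55). Without CDCP1 replicate 1 it was -0.031 (limma adjusted p = 0.896). The interval allows a level in the CDCP1 cells of 0.792 to 1.05 times that in the control.

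TNFAIP3 (probe ILMN_1702691; chr6:137866349-137883312, plus strand, GRCh38.p14) encodes A20, a ubiquitin-editing enzyme that acts on proteins upstream of the IkB kinase. Its signals were 7.48, 7.35 and 7.43 in the controls and 7.23, 7.22 and 7.48 in the CDCP1 cells. CDCP1 replicates 1 and 2 lay below all controls and replicate 3 above them. The log2 difference was -0.11 (SE 0.080, 95% interval -0.29 to 0.067, limma adjusted p = 0.586). The TNFAIP3 difference was -0.067 and -0.066 when CDCP1 replicate 1 or 2 was left out and -0.20 when replicate 3 was. Neither inhibitor passed the threshold, and both fitted differences were below 0.

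SOD2 (probe ILMN_2336781; chr6:159669069-159762281, minus strand, GRCh38.p14) encodes the manganese superoxide dismutase of mitochondria, a protective target of NF-kB. Its signals were 9.42, 9.61 and 9.59 in the controls and 9.55, 9.40 and 9.46 in the CDCP1 cells. The groups overlapped over most of their range. SOD2 showed a log2 difference of -0.067 (SE 0.073, 95% interval -0.23 to 0.094, limma adjusted p = 0.753). This value varied with single arrays, from -0.13 when GFP control replicate 1 was left out to -0.030 when GFP control replicate 2 was, and it was -0.11 when CDCP1 replicate 1 was.

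ICAM1 (probe ILMN_1812226; chr19:10271120-10286615, plus strand, GRCh38.p14) encodes an adhesion molecule to which leukocyte integrins bind. Its signals were 6.78, 6.91 and 7.12 in the controls and 6.96, 7.00 and 6.95 in the CDCP1 cells. The CDCP1 arrays lay within 0.056 of each other and inside the range of the controls, which was 0.35. ICAM1 showed a log2 difference of 0.034 (SE 0.084, 95% interval -0.15 to 0.22, limma adjusted p = 0.912).

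**Figure D5:**
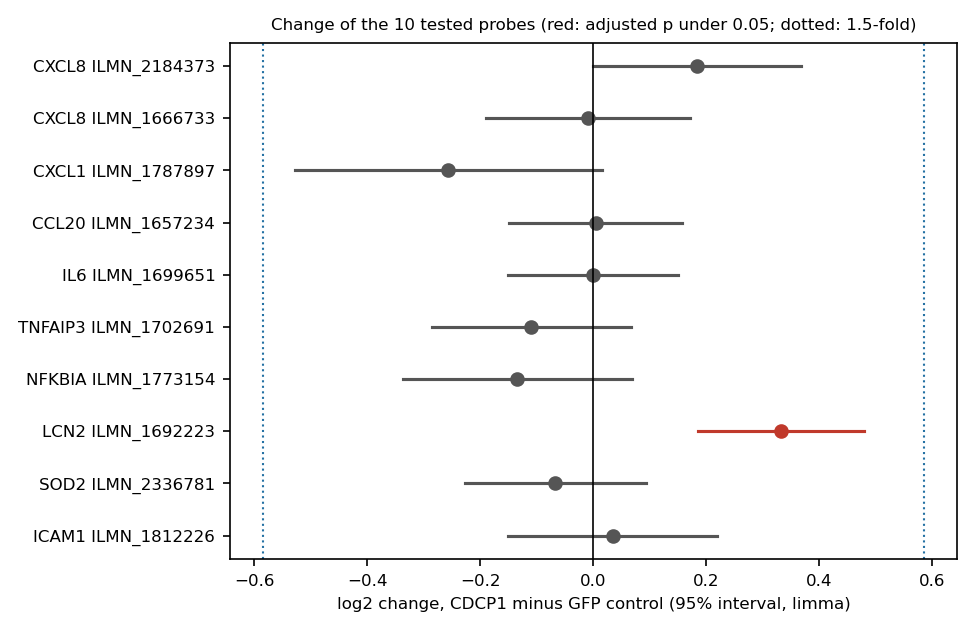
Log2 change (CDCP1 minus GFP control) of the 10 tested probes with its 95% interval from limma. Red marks an adjusted p under 0.05 and dotted lines mark a change of 1.5-fold. The interval of LCN2 runs from 0.19 to 0.48, the intervals of the remaining 9 probes include 0, and none reaches 1.5-fold. Of all 31511 tested probes, 30668 likewise have intervals within 1.5-fold.

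Within the groups the members did not follow 1 array. GFP control replicate 3 was the highest of the 6 arrays for 3 probes (CXCL8 probe ILMN_1666733, IL6 and ICAM1), GFP control replicate 2 for 3 (CXCL1, CCL20 and SOD2), and CDCP1 replicates 1 and 3 for 2 each (CXCL8 probe ILMN_2184373 and CXCL2, and TNFAIP3 and LCN2). GFP control replicate 1 was the highest for NFKBIA. GFP control replicate 2 was the lowest for 4 probes (both CXCL8 probes, IL6 and LCN2) and CDCP1 replicate 2 for 3 (CXCL1, TNFAIP3 and SOD2). The SD within the control group ran from 0.050 for CXCL8 probe ILMN_2184373 to 0.17 for ICAM1, and within the CDCP1 group from 0.016 for CXCL8 probe ILMN_1666733 to 0.28 for CXCL1.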

How the data were processed

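Total RNA of 6 SKBR3 samples was hybridised to Illumina bead arrays, which GenomeStudio read per the submitters' processing notes. The authors deposited log2 probe signals, already normalized between arrays: the array medians differ by at most 0.000523. The log2 scale is inferred from the values (6.45 to 14.35); the normalization method is not given in these sources. Both deposited tables hold the same values (0 of 47231 probes differ), and no detection p-values were used. The background limit of 6.68 is the mode of all values (6.62, kernel bandwidth 0.01) plus 1.64 background SDs, with the SD (0.0407) computed from the values under the mode. Differences near it are compressed.

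The difference, CDCP1 minus GFP control, was estimated in limma 3.58.1 under R 4.3.3 (lmFit, then eBayes) over the 31511 probes above the limit on at least 3 arrays. The test was two-sided and adjusted by Benjamini-Hochberg, and the code was tested on simulated data. The number of arrays limits the precision, with a median half-width of the 95% interval of 0.155. All listed probes are named, called or not. The members, lists, motifs and filter were chosen with earlier results of these data known. The planned start from raw signals was not possible. Promoters were searched in Python 3.11.15 and aligned with Biopython 1.88 (match 1, mismatch -1, gap opening -3, gap extension -1). The alternatives are given in the closing section.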

Additional observations from a re-analysis of the deposited data

How the results depend on the processing

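Of the listed probes, LCN2 was called under the 10 other fits that kept the 6 arrays, at a threshold of 0.05. In the reported fit LCN2 would not pass a threshold of 0.01, since its adjusted p in limma was 0.0158. No other listed probe was called under any alternative. Leaving out 1 array gave 0 to 1 called members and 613 to 2132 called probes in all. The count over all probes was 559 at an adjusted p of 0.01, as fewer probes meet a stricter rule. It was 2611 with array weights, and the cause was not tested. A replicate block on the experiment number gave 1085, and LCN2 stayed past the threshold (limma adjusted p = 0.0467). The experiment numbers were not taken as pairing the samples in the reported fit. Deviations of same-numbered arrays from their group means correlated at -0.27, -0.30 and 0.16 over probes. CDCP1 replicates 1 and 2 correlated best with controls of another number (0.38 and 0.29). Because deviations within a group cancel, these correlations depend on one another and cannot decide whether the numbers pair the samples. The slide could not be a block, since all arrays share it. With the position on the slide as a covariate, the difference of CXCL8 probe ILMN_1666733 was 0.0094 and that of IL6 was 0.0027, both above 0. Leaving out 1 array turned the sign of 4 probes that were never called: the differences ran from -0.060 to 0.087 for CXCL8 probe ILMN_1666733, from -0.041 to 0.055 for CCL20, from -0.035 to 0.051 for IL6 and from -0.047 to 0.13 for ICAM1. The differences of the uncalled probes for TNFAIP3, SOD2 and NFKBIA stayed below 0 when 1 array was left out, but moved by more than 1.5 times, from -0.20 to -0.066, from -0.13 to -0.030 and from -0.19 to -0.031. Normexp with an offset of 50, which removes part of the background, gave LCN2 a log2 change of 0.40. The stricter filter left IL6 untested, and without a filter CXCL2 had an adjusted p of 0.907 in limma. Signal over background limits most what the probes for CXCL2 and IL6 can show. Compression may also reach other listed probes with signals near the limit. The lowest array exceeded the limit by 0.093 for ICAM1, 0.31 for CCL20 and 0.99 for LCN2, against 4.85 for NFKBIA. How far compression shrank each difference was not tested. The other probes of the listed genes and the pathway lists were not run, since no probe outside the list was paired with a gene.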
